A study of Mus musculus with 2 samples.

Results

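Axon guidance genes were taken as every gene of the semaphorin, plexin, ephrin, Eph receptor, Slit, Robo and netrin families whose symbol carried the usual family name, 62 of the 32285 genes counted. They were described in droplet single-cell RNA sequencing (scRNA-seq) of the temporomandibular joint (TMJ), the jaw joint, by cell class and by library. The study asked how loss of lymphatic function changes TMJ arthritis, an inflammation set off by injecting complete Freund's adjuvant (CFA) into the joint. There was 1 library per genotype, WT and Prox1 mutant, which the study's text gives as Prox1+/-. Both came from female C57BL/6 mice that had received CFA, with an age of 8 to 10 weeks in the sample records and of 2 months in the study's text. Prox1 is the transcription factor that sets lymphatic identity in endothelial cells, and no untreated library was analysed here. How many animals were pooled in a library is not given in the sources used here. With 1 library per genotype no test between genotypes was possible, and all intervals below are 95% intervals for counting error only. Where a pair of values is given, the WT value comes first.

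The deposited counts are unique molecular identifiers (UMIs), 1 for each captured transcript. After cells with few genes or many mitochondrial transcripts had been left out, 4352 WT and 5757 mutant cells remained, with medians of 6997 and 4848 UMIs per cell. Of the cell barcodes, 10 occurred in both libraries, and 4 of these were among the kept cells. Prox1 itself had 563 UMIs in the kept WT cells and 315 in the kept mutant cells, 11.6 and 5.80 counts per 1000000 UMIs (CPM). In endothelial cells it stood at 41.3 and 25.7 CPM, a log2 ratio of -0.69 (-1.0 to -0.37). Muscle satellite cells held 204 of the WT and 122 of the mutant Prox1 UMIs, and there the mutant was higher. The level was 313 and 487 CPM, a log2 ratio of 0.64 (0.30 to 0.97), and these cells were 2.07% and 0.608% of the libraries. The libraries differed in makeup: endothelial cells were 24.1% of the WT and 9.10% of the mutant cells, and clusters that could not be named held 417 WT and 1596 mutant cells. Haemoglobin and other erythroid markers were more abundant in the mutant library even within endothelial cells, where their summed level was 1333 CPM in WT cells and 8878 CPM in mutant cells.

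Axon guidance ligands steer growing nerve fibres and migrating cells by attracting or repelling them. Semaphorins signal through plexins, with neuropilins as partners for most of the secreted forms, ephrins are held on the membrane and bind Eph receptor tyrosine kinases, Slits bind Robo receptors, and netrins bind Dcc, neogenin and Unc5 receptors. Outside the nervous system the same families pattern blood vessels, guide immune cells and take part in bone remodelling and in the sorting of connective tissue cells.

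Of the 62 genes, 54 had at least 100 UMIs over both libraries and were called detected: 18 of 20 semaphorins, 9 of 9 plexins, 7 of 8 ephrins, 11 of 14 Eph receptors, 3 of 3 Slits, 3 of 4 Robos and 3 of 4 netrins. The 8 others, Sema4f, Sema4g, Efna3, Epha1, Epha8, Epha10, Robo3 and Ntn5, had between 2 and 89 UMIs. Among detected genes the total ran from 100 UMIs for Efnb3 to 17114 for Slit3. Each gene's level was compared across 13 cell classes, by the mean CPM of the 2 libraries. In both libraries these classes held at least 20 cells and 100000 UMIs, with a median depth at most 3 times below that of the library. Epithelial cells (31 WT and 312 mutant) were named but not ranked, since their medians of 2066 and 1291.5 UMIs were too low. Adipocytes, with 7 WT cells, were not ranked either. The classes had been named from marker genes after clustering without the axon guidance genes. The own markers of each ranked class were between 10.2 and 239 times higher in it than in the other cells. Since the naming rested on these same markers, that difference is no separate evidence for the names.

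Most detected axon guidance genes were highest in endothelial cells, Schwann cells (the glia of peripheral nerves) or osteoblasts and osteocytes. Endothelial cells held the highest level of 14 genes (25.9%), against 9.41% of all 15161 detected genes, and Schwann cells that of 15 (27.8%), against 13.1%. Osteoblasts and osteocytes, grouped as 1 class, held 7 (13% against 6.83%), mesenchymal cells 4 (7.41% against 5.12%) and mural cells 3 (5.56% against 7.02%). Muscle satellite cells, chondrocytes, macrophages, neutrophils and B lineage cells held 2 each (3.70%), against 8.30%, 4.13%, 5.30%, 4.53% and 14.0% of all detected genes, and T cells 1 (1.85% against 6.79%). No axon guidance gene was highest in granulocyte-monocyte progenitors or erythroid cells, which held 8.44% and 6.99% of all detected genes. The libraries named the same class for 39 of the 54 genes, and the share over all detected genes was not computed. The tau index, which is 0 for a gene at the same level in every class and 1 for a gene found in 1 class, had a median of 0.897 over the 54 genes and of 0.692 over all detected genes, and the leading class exceeded the next by a median of 1.73 and 1.34 times. These shares describe 2 libraries and were not tested.

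**Figure D1:**
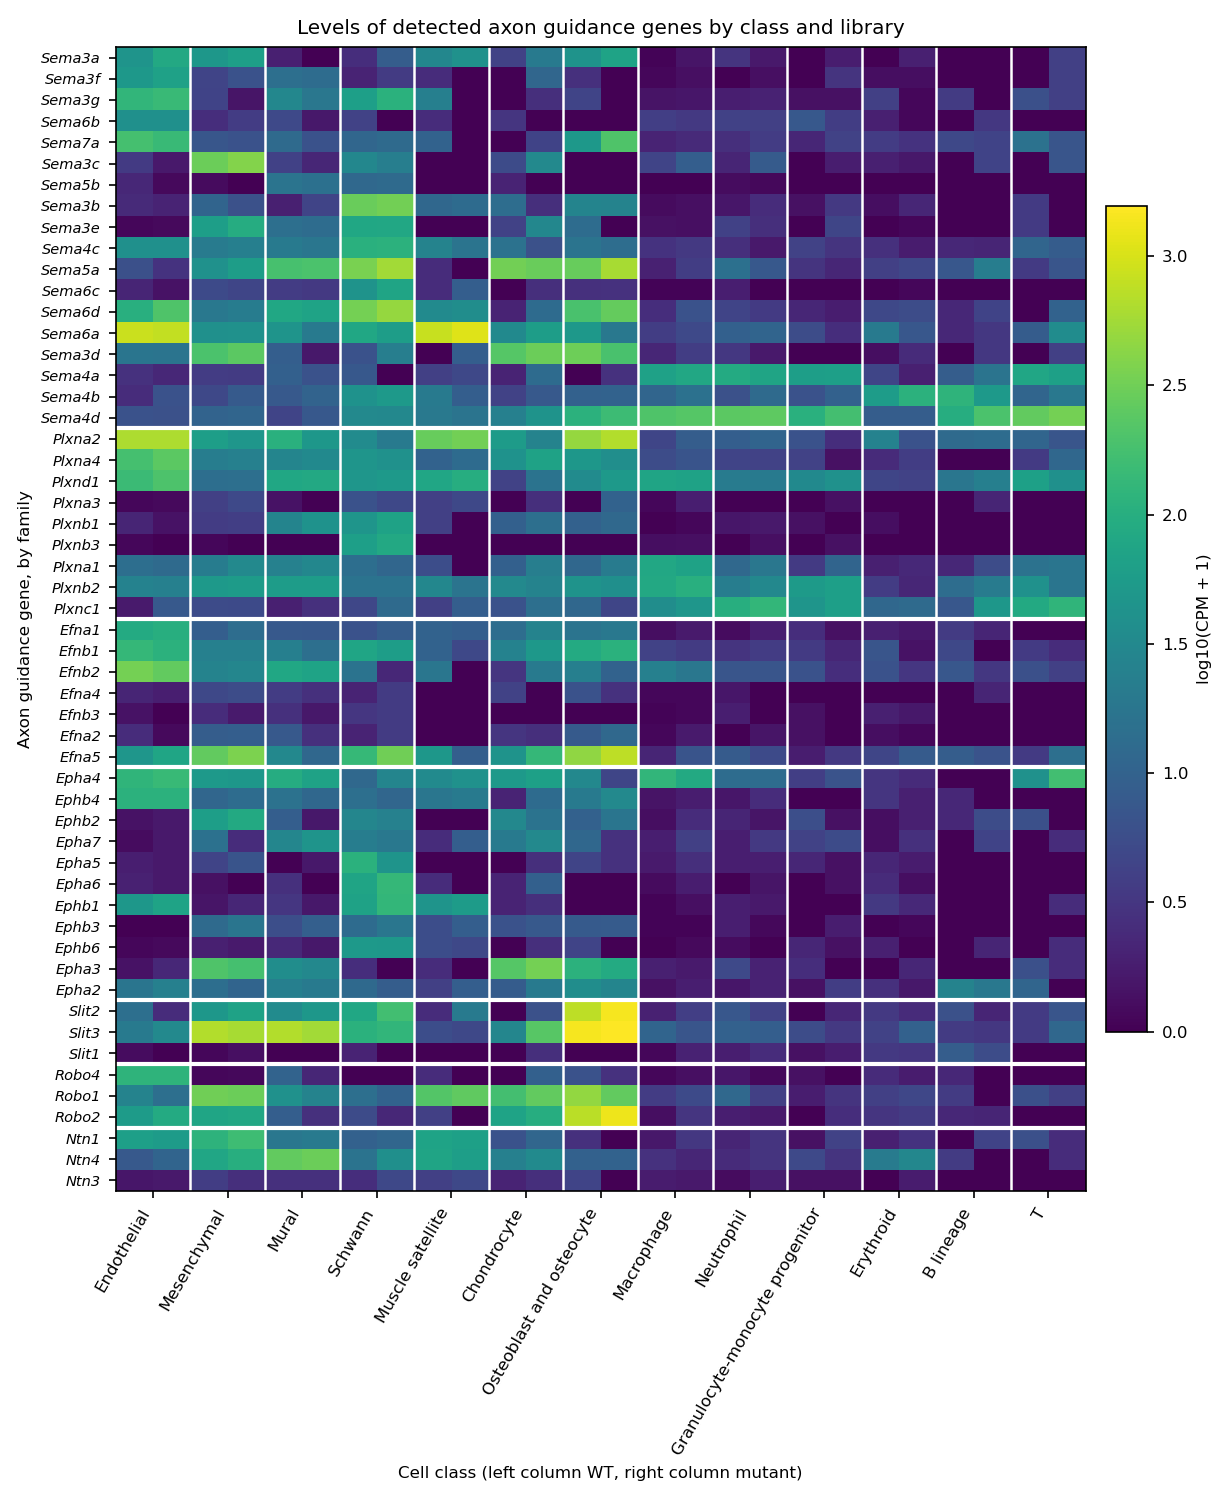
Level of each of the 54 detected axon guidance genes (rows, grouped by family with white lines between families) in 13 cell classes (columns, WT left and mutant right), as log10(CPM + 1) by colour. The brightest blocks lie in endothelial cells, Schwann cells and osteoblasts or osteocytes, and the columns of granulocyte-monocyte progenitors and erythroid cells stay dark for most genes.

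Among the ligands of endothelial cells, Efnb2, the transmembrane ephrin that marks arteries in developing vessels, stood at 332 CPM in WT cells and 264 CPM in mutant cells. Mural cells, which wrap vessels, followed with 79.4 and 70.9 CPM. The other endothelial ephrins were Efna1, at 89.0 and 99.2 CPM, and Efnb1, at 133 and 112 CPM. Both libraries had all 3 of these ephrins highest in endothelial cells, but Efnb1 in osteoblasts and osteocytes reached 88.3 and 110 CPM, close to the endothelial value in the mutant. Of the semaphorins, Sema7a, a membrane-anchored form known as a ligand of Plxnc1, stood at 179 and 145 CPM and Sema3g at 127 and 144 CPM in endothelial cells. In the mutant library Sema7a was higher in osteoblasts and osteocytes (49.5 and 206 CPM). In endothelial cells Sema3f was at 49.5 and 66.9 CPM and Sema6b at 39.2 and 38.6 CPM. Sema3a, a secreted repellent of axons, was at 44.1 CPM in WT and 83.3 CPM in mutant endothelial cells, and its level in mesenchymal cells, 47.5 and 62.4 CPM, was higher than that in WT and lower than that in the mutant.

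Among the receptors of endothelial cells, Ephb4, the receptor of Efnb2 that marks veins in developing vessels, stood at 111 CPM in WT cells and 113 CPM in mutant cells, and Robo4, the endothelial Robo, at 117 CPM in both. Outside endothelial cells Robo4 stayed at or below 9.37 CPM in every class ranked. Plxnd1, the receptor of Sema3e in vessels, was at 150 and 201 CPM, Plxna4 at 176 and 243 CPM and Plxna2 at 623 and 621 CPM. Plxna2 was also high in osteoblasts and osteocytes, at 486 CPM in WT cells and 672 CPM in mutant cells, so that the libraries disagreed on its leading class. Epha4, which binds ephrins of both types, was at 122 and 141 CPM in endothelial cells, while macrophages had 124 and 86.6 CPM and T cells 39.9 and 169 CPM. Sema6a, a transmembrane semaphorin that binds Plxna2, belonged to the muscle satellite cells by its mean (842 and 1102 CPM), with 852 and 784 CPM in endothelial cells.

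Promoter sequences of 300 bases, from 250 bases before to 50 after the annotated start, were available for 46 of the 54 detected genes. Those of the arterial and venous ephrin pair, Efnb2 and Ephb4, and of Robo4 and Sema3g, chosen after their values were seen, are shown because these 4 genes shared endothelial cells as their leading class. They come from RefSeq on GRCm38.p6, at chr8:8661193-8661492 (minus strand), chr5:137349859-137350158 (plus), chr9:37401722-37402021 (plus) and chr14:31217623-31217922 (plus), and are written 5′ to 3′ on the strand of the gene. Capitals mark GGAAG, which holds the GGAA form of the core recognised by ETS factors, or its reverse complement CTTCC. Other sites with GGAA or GGAT were neither marked nor counted.
Efnb2: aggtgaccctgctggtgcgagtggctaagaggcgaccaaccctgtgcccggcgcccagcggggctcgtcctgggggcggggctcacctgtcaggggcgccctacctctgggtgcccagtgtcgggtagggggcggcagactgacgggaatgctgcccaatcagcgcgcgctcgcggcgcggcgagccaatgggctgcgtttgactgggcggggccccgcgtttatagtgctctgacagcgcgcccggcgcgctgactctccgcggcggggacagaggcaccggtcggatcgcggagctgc
Ephb4: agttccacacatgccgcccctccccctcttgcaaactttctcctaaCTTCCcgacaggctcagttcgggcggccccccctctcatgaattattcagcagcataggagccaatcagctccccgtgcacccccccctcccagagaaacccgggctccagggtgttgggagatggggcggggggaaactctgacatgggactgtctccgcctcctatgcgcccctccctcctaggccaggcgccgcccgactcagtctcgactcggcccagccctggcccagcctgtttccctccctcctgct
Robo4: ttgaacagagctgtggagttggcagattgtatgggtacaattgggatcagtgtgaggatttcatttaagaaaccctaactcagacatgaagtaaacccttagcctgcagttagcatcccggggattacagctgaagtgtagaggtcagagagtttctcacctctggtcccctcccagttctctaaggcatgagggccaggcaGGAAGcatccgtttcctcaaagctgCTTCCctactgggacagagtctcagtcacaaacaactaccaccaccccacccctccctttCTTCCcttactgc
Sema3g: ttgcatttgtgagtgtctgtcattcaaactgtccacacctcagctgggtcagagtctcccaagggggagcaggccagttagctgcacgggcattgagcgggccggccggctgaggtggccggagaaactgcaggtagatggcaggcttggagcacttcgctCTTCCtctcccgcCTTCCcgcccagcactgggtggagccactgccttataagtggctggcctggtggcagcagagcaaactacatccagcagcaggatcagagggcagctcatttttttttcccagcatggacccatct
GGAAG or its complement occurred 0 times in the Efnb2 window, 1 time in Ephb4, 3 times in Robo4 and 2 times in Sema3g. The GC box GGGCGG or its complement CCGCCC occurred 3, 4, 0 and 1 times, and the windows held 72.3%, 64.7%, 50.3% and 58.7% G and C. GGAAG is common in such windows: 71.4% of all 32851 promoters held it. Counted by gene, with any promoter of the gene, 73.9% of all 27025 genes held it, 78.8% of detected genes and 80.4% of the 46 axon guidance genes. Among genes highest in endothelial cells, 9 of 12 held GGAAG and 9 of 12 the GC box, and among genes highest in Schwann cells 13 of 13 and 11 of 13. The GC box was found in 35.7% of all promoters. Counted by gene, it was found in 38.2% of all genes, 65.3% of detected genes and 73.9% of the 46.

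Within the endothelial class, cells were split into arterial (141 WT and 85 mutant cells), capillary (527 and 260) and venous (163 and 97) groups by markers that were not axon guidance genes, and 218 and 82 cells stayed without a name. All 7 markers of lymphatic endothelium had UMIs in both libraries, Ccl21a the most (690 and 677 UMIs). By CPM, Ccl21a (96.5 and 146), Lyve1 (7.28 and 23.9) and Flt4 (63.7 and 67.9) were higher in the mutant. Prox1 (41.3 and 25.7), Mmrn1 (56.2 and 23.9), Reln (34.1 and 16.8) and Pdpn (6.72 and 4.96) were lower. No separate group of lymphatic cells was named at the main clustering resolution, and those cells lay among the groups named here. At a clustering resolution of 0.5 a lymphatic group of 11 WT and 4 mutant cells was named, with 6 of 7 lymphatic markers raised. Sema3g was mainly arterial, with 489 CPM in WT cells and 621 CPM in mutant cells, against 72.4 and 46.5 CPM in capillary and 37.9 and 22.7 CPM in venous cells. Efna5, an ephrin anchored to the membrane by a lipid, followed it, with 186 and 276 CPM in arterial, 2.13 and 3.47 CPM in capillary and 37.1 and 53.3 CPM in venous cells. Epha4 followed the same order as Sema3g in both libraries, from 226 and 294 CPM in arterial to 163 and 170 CPM in capillary and 38.6 and 66.9 CPM in venous cells.

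Cells of the venous group held 2 other semaphorins, part of them in lymphatic cells. Sema3a was listed at 0 UMIs in the arterial cells of both libraries, at 4.26 and 2.78 CPM in capillary cells, and at 114 and 216 CPM in venous cells. Sema3d had 0 UMIs in arterial cells of both libraries, 2.13 and 0 CPM in capillary cells, and 42.8 and 42 CPM in venous cells, where 11 WT and 4 mutant cells had a UMI and 1 cell in each library held 58 of 113 and 44 of 74 UMIs. At resolution 0.5 the lymphatic group held 113 and 72 UMIs of Sema3d and the venous group 0 and 2, so that nearly all endothelial Sema3d lay in the lymphatic group there. Sema3a was divided at that resolution, with 150 and 65 UMIs in lymphatic cells and 152 and 315 UMIs, 61.2 and 192 CPM, in venous cells. Here too few cells held most of it. In the lymphatic group 1 cell in each library held 103 and 39 of these UMIs, and in the venous group 88 and 111. Only 18 WT and 17 mutant venous cells had a Sema3a UMI. With 1216901 and 883089 UMIs in arterial cells, a count of 0 allows up to 2.47 and 3.40 CPM. Sema3f and Plxna4 were both lowest in capillary cells: Sema3f had 64.1 and 89.5 CPM in arterial, 17.0 and 19.5 CPM in capillary and 85.9 and 107 CPM in venous cells. Plxna4, a receptor for class 3 semaphorins, had 241 and 409 CPM, 43.8 and 36.8 CPM, and 310 and 371 CPM in the same order.

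Capillary cells had the highest levels of Efnb1, Robo2 and Ephb1 in both libraries. Part of this group, a subcluster of 221 WT and 94 mutant cells, had only 3 of 7 capillary markers raised. None of these was among its leading genes, which included Robo2. Efnb1 stood at 219 and 160 CPM in capillary cells, against 80.5 and 98.5 CPM in arterial and 57.9 and 70.9 CPM in venous cells. Robo2 stood at 112 and 156 CPM, against 21.4 and 53.2 CPM and 12.5 and 31.8 CPM, and Ephb1 at 62.6 and 90.3 CPM, against 14.0 and 21.5 CPM and 47.7 and 64.1 CPM. The classical artery and vein pair was only partly divided in this adult tissue. Efnb2 was at 397 and 453 CPM in arterial, 444 and 344 CPM in capillary and 198 and 125 CPM in venous cells, an arterial to venous log2 ratio of 1.31 over both libraries. Ephb4 was nearly level, at 87.9 and 109 CPM in arterial, 117 and 113 CPM in capillary and 116 and 112 CPM in venous cells, with an arterial to venous log2 ratio of -0.24. Sema7a was at 279 and 200 CPM in arterial, 227 and 156 CPM in capillary and 111 and 118 CPM in venous cells.

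**Figure D2:**
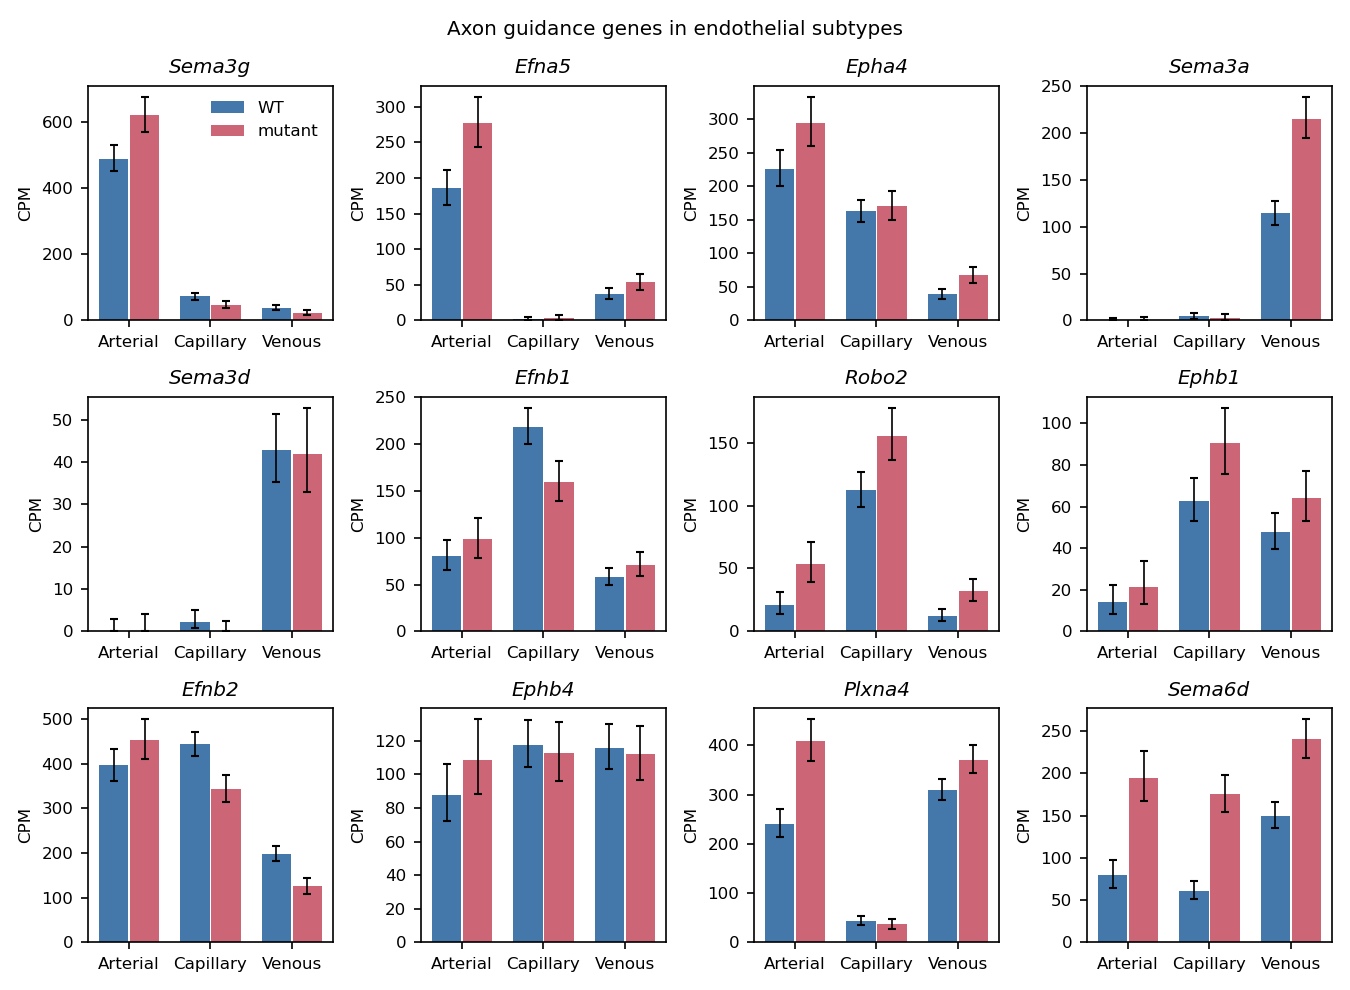
Level in CPM (vertical axes from 0, a scale of its own for each gene) of 12 axon guidance genes in arterial, capillary and venous endothelial cells of the WT and mutant libraries, with 95% Poisson counting intervals. Sema3g, Efna5 and Epha4 are highest in arterial cells, Sema3a and Sema3d in the venous group, although at resolution 0.5 nearly all Sema3d lay in a few lymphatic cells, and Efnb1, Robo2 and Ephb1 in capillary cells, in both libraries.

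Schwann cells had the longest list of semaphorins. Sema3b stood at 291 CPM in WT cells and 321 CPM in mutant cells, with no more than 26.5 CPM in any other class ranked. Sema5a, a transmembrane form, stood at 350 and 555 CPM, Sema6d at 337 and 481 CPM, Sema4c at 105 and 112 CPM, Sema3e at 78.6 and 81.5 CPM and Sema6c at 43.1 and 72.4 CPM. Sema5a and Sema3e were not set apart from every class, since osteoblasts and osteocytes had 284 and 599 CPM of Sema5a and mesenchymal cells 60.4 and 92.8 CPM of Sema3e. The receptors of this class included Plxnb3, a plexin known from myelin-forming glia, with 62.8 and 84.0 CPM in Schwann cells and at most 0.402 CPM elsewhere. Plxnb1 stood at 45.3 and 68.5 CPM, Epha5 at 108 and 44.0 CPM, Epha6 at 71.5 and 134 CPM, Ephb1 at 67.1 and 129 CPM and Ephb6 at 52.4 and 49.1 CPM. Ephb3 (12.0 and 16.8 CPM), Plxna3 (5.46 and 3.88 CPM) and Efnb3 (2.18 and 2.59 CPM) were highest here by mean but low, and Ephb3 in mesenchymal cells had almost the same level, 11.7 and 16.6 CPM.

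The 2 named kinds of Schwann cell divided some of these genes, while 186 WT and 90 mutant Schwann cells stayed without a name. The myelinating group had 4 of 7 markers raised and the non-myelinating group 5 of 7. None of these was among the leading genes of its group. In myelinating cells (135 WT and 56 mutant), which wrap axons in myelin, Sema5a stood at 681 and 736 CPM, and in non-myelinating cells (51 and 14) at 9.73 and 20.1 CPM. Epha6 was at 176 and 312 CPM in myelinating cells and at 0 UMIs in the non-myelinating cells of both libraries, and Sema6c was at 97.5 and 129 CPM against 0 and 10.0 CPM. Sema3b was at 440 and 452 CPM in myelinating and 165 and 120 CPM in non-myelinating cells. The reverse held for Sema3e, with 6.50 and 10.8 CPM in myelinating and 191 and 442 CPM in non-myelinating cells, and for Epha5, with 49.9 and 39.5 CPM against 243 and 80.3 CPM. The 14 non-myelinating mutant cells held only 99637 UMIs, so that each UMI there is worth about 10.0 CPM.

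Osteoblasts and osteocytes, the cells that form and maintain bone, held the Slit ligands together with Robo receptors. Slit2 stood at 740 CPM in WT cells and 1414 CPM in mutant cells and Slit3 at 1404 and 1557 CPM. Robo2 stood at 731 and 1298 CPM and Robo1 at 475 and 268 CPM. Slit2 and Robo2 were far above the next class by mean, which was Schwann cells for Slit2 (78.0 and 168 CPM) and chondrocytes for Robo2 (70.9 and 97.6 CPM). Slit3 was also high in mesenchymal cells (666 and 590 CPM) and mural cells (660 and 560 CPM), and Robo1 in mesenchymal cells (319 and 300 CPM), muscle satellite cells (217 and 259 CPM) and chondrocytes (171 and 264 CPM). Efna5 stood at 458 and 746 CPM in osteoblasts and osteocytes, Epha2 at 35.3 and 27.4 CPM and Efna2 at 7.07 and 11 CPM. The class had only 30 WT and 26 mutant cells, and 1 cell in each library held 9.56% and 26.4% of its UMIs. Slit2 and Slit3 each overlap another counted gene on the same strand. Without that cell Slit2 was at 762 and 1230 CPM, Robo2 at 701 and 1163 CPM and Slit3 at 1469 and 1729 CPM, still the highest of the classes ranked. Epha2 then stood at 33.2 and 12.4 CPM, on 17 and 5 UMIs, and in the mutant library it was lower than in mural cells (19.7 CPM).

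In mesenchymal cells, which include fibroblasts and tendon cells of the joint, Sema3c was at 298 CPM in WT cells and 403 CPM in mutant cells. Schwann cells had 29.5 and 22.0 CPM of Sema3c, a secreted semaphorin that binds Plxnd1 with neuropilins. Ntn1, the founding netrin, stood at 115 and 159 CPM and Ephb2 at 60.6 and 85.6 CPM, while Efna4 was low at 3.94 and 4.44 CPM. Among subtypes, Sema3c reached 1269 and 1599 CPM in Pi16 fibroblasts (61 WT and 35 mutant cells), 330 and 386 CPM in synovial lining cells and 27.3 and 51.4 CPM in tendon cells. Slit3 was at 1485 and 1022 CPM in Col15a1 fibroblasts and 1736 and 1585 CPM in Pi16 fibroblasts, against 479 and 528 CPM in synovial lining cells. Tendon cells (80 and 49) led for Epha3 (628 and 419 CPM), Efna5, a ligand of Epha3 (477 and 777 CPM), and Robo1 (623 and 457 CPM). Sema3d was highest in a part of the mesenchymal cells that could not be named, at 596 and 632 CPM. A subcluster in that part, of 89 WT and 58 mutant cells, was led by genes that included Sema3d and the cartilage markers Acan, Col2a1 and Hapln1.

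Chondrocytes, the cartilage cells, had Epha3 at 224 CPM in WT cells and 332 CPM in mutant cells and Sema3d at 221 and 298 CPM. In WT, Sema3d was higher in osteoblasts and osteocytes (307 CPM, with 188 CPM in the mutant), and Epha3 in mesenchymal cells was at 205 and 177 CPM. The chondrocytes were 29 deep cells in WT and 106 shallower cells in the mutant, with medians of 32750 and 3350.5 UMIs. Their own markers summed to 48618 CPM in WT and 6686 CPM in mutant chondrocytes, with 1 of 8 at 0 in the mutant, and with under 50 WT cells no fold was computed for this class. Mural cells led for Ntn4, a netrin of vessel walls and basement membranes, at 263 and 298 CPM, for Epha7 at 28.6 and 44.1 CPM and for Sema5b at 16.1 and 14.3 CPM. Ntn3 was highest in muscle satellite cells, the stem cells of muscle, at only 3.07 and 3.99 CPM.

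In immune cells the ligands that led were class 4 semaphorins, membrane proteins known from lymphocytes and myeloid cells. Sema4d, which T cells are known to carry, had 269 CPM in WT and 331 CPM in mutant T cells, 247 and 254 CPM in neutrophils and 207 and 223 CPM in macrophages. Neutrophils did not share a single level: 1 cluster (182 WT and 169 mutant cells) had 650 and 602 CPM of Sema4d, and another (130 and 163) had 130 and 132 CPM. Sema4a stood at 87.8 and 72.7 CPM in neutrophils and 66.7 and 81.4 CPM in macrophages. Sema4b was at 118 CPM in WT and 51.9 CPM in mutant B lineage cells and at 56.9 and 113 CPM in erythroid cells, so that its leading class differed between libraries, and Slit1 was highest in B lineage cells at only 7.72 and 4.52 CPM. Of the receptors, Plxnc1, which binds Sema7a, stood at 99.6 and 131 CPM in neutrophils and 84.7 and 121 CPM in T cells. Plxna1 stood at 80.9 and 67.4 CPM and Plxnb2 at 83.4 and 102 CPM in macrophages. Epha4 in macrophages was not found in every subtype: it stood at 0.964 and 2.79 CPM in resident, 9.38 and 17.8 CPM in interferon-type and 165 and 137 CPM in the remaining macrophages, which could not be named.

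Of 23 ligand and receptor pairs, 6 had their ligand and receptor highest in the same class by the mean of the 2 libraries. How often other pairs of genes would share a class was not computed. The 6 were Sema3a with Plxna4, Sema3g with Plxna2 and Efnb2 with Ephb4 in endothelial cells, and Slit2 with Robo1, Slit3 with Robo1 and Slit2 with Robo2 in osteoblasts and osteocytes. The Slit and Robo pairs have genes in common and are not separate results. Efnb2 with Ephb4 and Slit2 with Robo2 shared a class in each library taken alone. In WT alone Sema3a was highest in mesenchymal cells. In the mutant alone Plxna2 was highest in osteoblasts and osteocytes and Robo1 in mesenchymal cells. In the other 17 pairs the ligand and its receptor were highest in different classes by that mean. Sema3c was highest in mesenchymal cells and Plxnd1 in endothelial cells, where Sema3c had a mean of 1.58 CPM, and Sema7a was highest in endothelial cells by its mean and Plxnc1 in neutrophils. Sema4d was highest in T cells and Plxnb1 in Schwann cells, and Slit3 in osteoblasts and osteocytes and Robo4 in endothelial cells. Transcript levels in separate classes do not show that a ligand met its receptor.

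**Figure D3:**
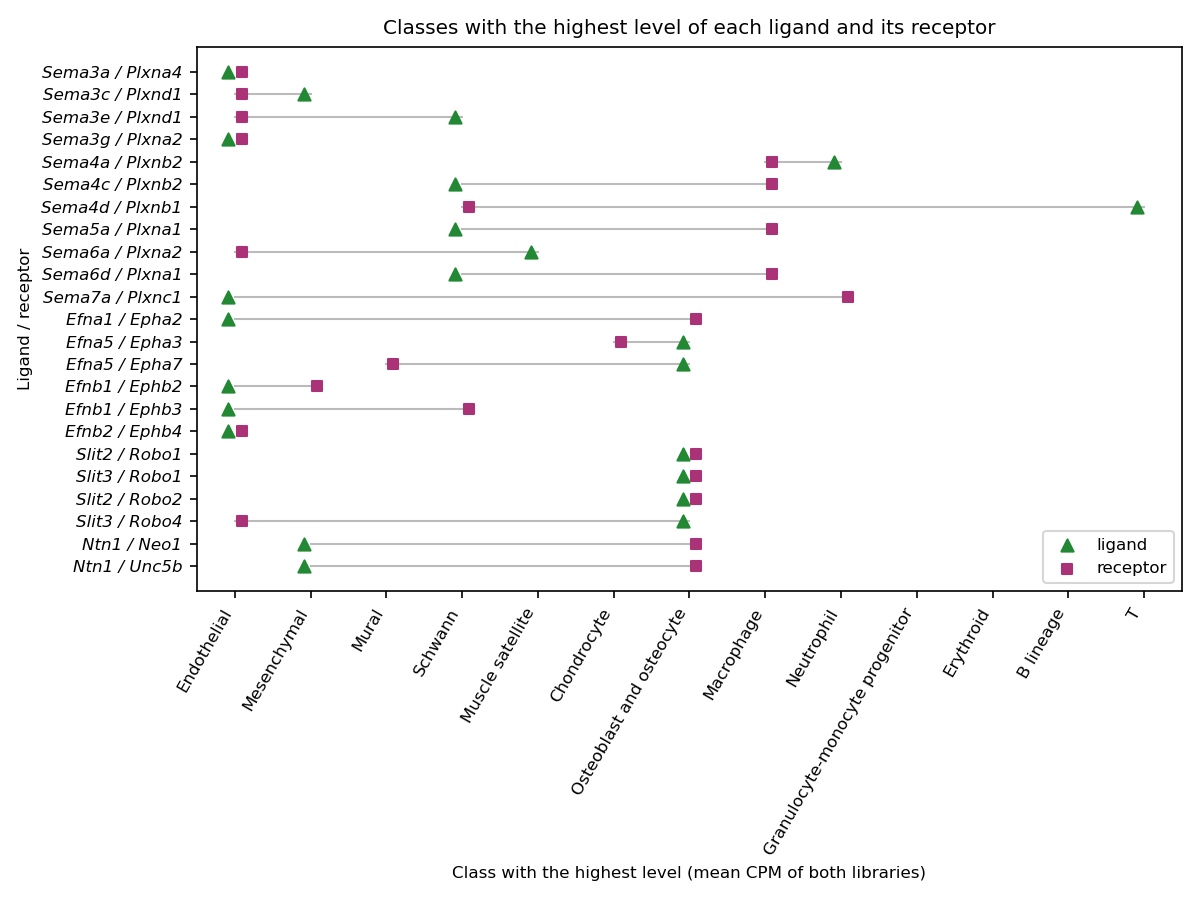
Cell class (horizontal axis) with the highest mean CPM over both libraries for the ligand (triangle) and the receptor (square) of 23 pairs (vertical axis), joined by a line where they differ. In 6 pairs both symbols stand at the same class, endothelial cells or osteoblasts and osteocytes, but not all of these share a class in each library alone.

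The genotypes were compared within the 9 classes that had at least 50 cells in each library. A gene counted as higher or lower in the mutant library when its CPM differed at least 2-fold with at least 50 UMIs over both libraries, a rule of size and not a test. Over these classes 178 values of axon guidance genes could be read, of which 14 (7.87%) were higher and 11 (6.18%) lower in the mutant. Of the 79159 values of all genes 3.43% were higher and 2.82% lower. Macrophages held 8 of the 14 higher values, all at low levels, and none of the 11 lower ones. In that class 6.25% of all genes were higher in the mutant.

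**Figure D4:**
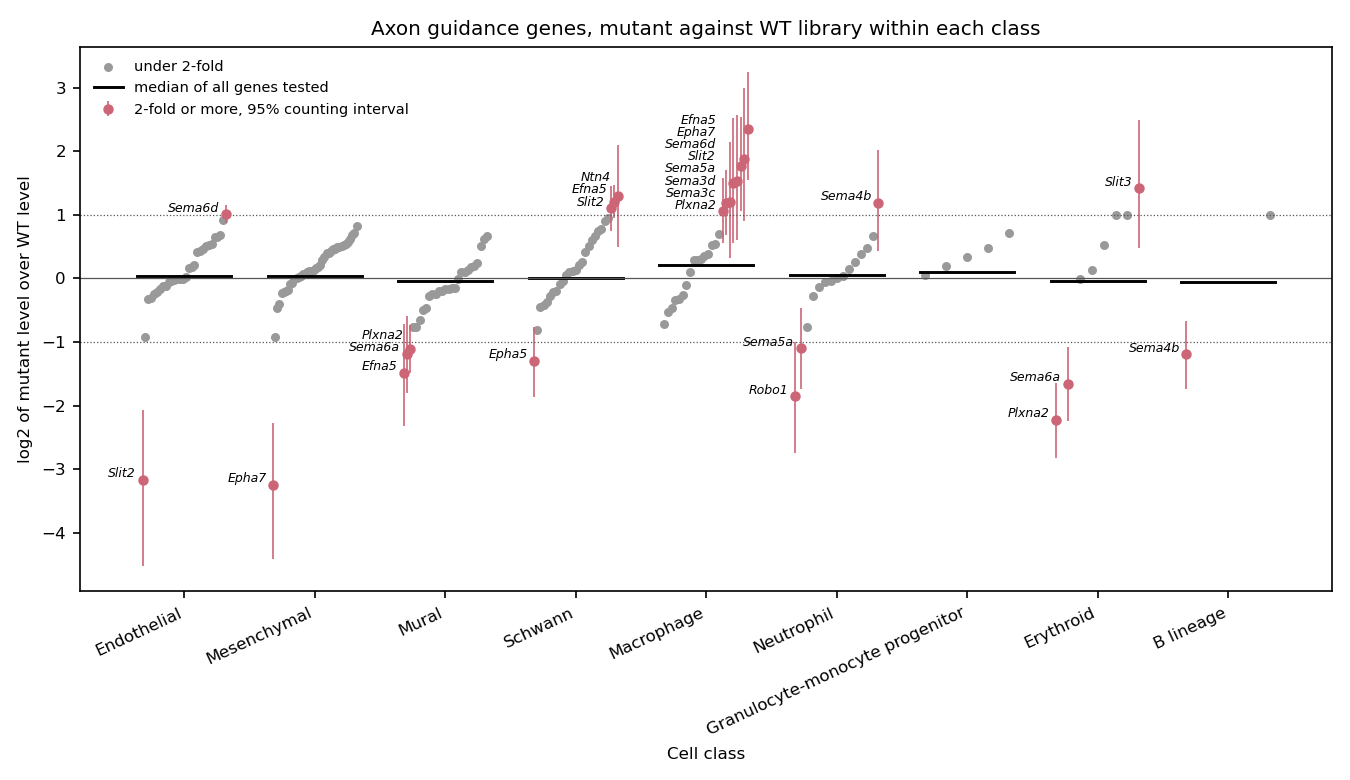
Log2 of the mutant over the WT level (vertical axis) of axon guidance genes with at least 50 UMIs in each of 9 cell classes (horizontal axis), sorted by value within a class. Red points with 95% counting intervals differ at least 2-fold and are named, grey points do not, and black bars give the median over all genes read in the class. Endothelial and mesenchymal cells have 2 and 1 named genes among 30 and 40, and macrophages have 8 among 24, all higher in the mutant.

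In endothelial cells 1 of 30 genes was higher and 1 lower in the mutant, where 2.06% and 1.76% of all genes read in that class were. Sema6d, a transmembrane semaphorin that lies on chromosome 2 from 124089969 to 124667770 (GRCm38), had 723 UMIs in WT and 943 in the mutant endothelial cells, 101 CPM (93.9 to 109) and 203 CPM (191 to 217). The mutant was higher by a log2 ratio of 1.01 (0.87 to 1.15). The direction was the same in each endothelial group, with 79.7 and 195 CPM in arterial, 61.3 and 175 CPM in capillary, 150 and 240 CPM in venous and 91.5 and 174 CPM in unnamed cells. After random thinning of every cell to 2000 UMIs, 12.4% of WT (10.4 to 14.7) and 25.4% of mutant endothelial cells (21.8 to 29.4) had a Sema6d UMI. Before thinning the shares were 27.0% and 50.4%, at median depths of 4460 and 5965.5 UMIs. Macrophages had little Sema6d, but there too the mutant was higher, by a log2 ratio of 1.77. Of thinned macrophages 0.355% and 0.727% had a UMI, at median depths of 16678.5 and 13876 UMIs. Over 10 alternative settings the log2 ratio of Sema6d lay between 0.96 and 1.05, on both sides of the 2-fold limit.

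The gene that was lower in mutant endothelial cells, Slit2, rested on few cells. It had 97 UMIs in WT and 7 in the mutant, 13.6 and 1.51 CPM, but 72 of the WT UMIs were in 1 cell. Without the cell with the most Slit2 UMIs in each library its log2 ratio moved from -3.17 (-4.52 to -2.07) to -1.70. Sema3a stayed just under the limit, with a log2 ratio of 0.92 (0.70 to 1.14). The median over the 30 genes was 0.01, against 0.04 over all genes of the class. Summed mesenchymal markers in the endothelial cells were 178 CPM in WT cells and 78.7 CPM in mutant cells, with no marker of the 8 at 0 in either library and 2 higher in the mutant, and their part in the Slit2 value was not tested.

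In mesenchymal cells no gene of 40 was higher and 1 was lower, against 1.73% and 1.82% of all genes. Epha7, an Eph receptor on chromosome 4 from 28813131 to 28967499, had 115 UMIs in WT and 9 in the mutant, 14.6 and 1.54 CPM, a log2 ratio of -3.25 (-4.41 to -2.27). Tendon cells held 81 of the WT UMIs, 79.1 CPM, and 0 in the mutant. With the mutant set to 3 UMIs it was 17.4-fold lower there, a log2 ratio of -4.12 whose interval reached up to -3.79. The ratio of the whole class depended on which clusters made it up, since it was -0.61 without integration of the libraries and -0.18 at a clustering resolution of 0.5. The median over the 40 genes was 0.15, with 29 above 0, against a median of 0.04 over all genes.

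In Schwann cells 3 of 27 genes were higher and 1 was lower, against 2.11% and 5.23% of all genes. Efna5, on chromosome 17 from 62604184 to 62881317, had 250 UMIs in WT and 244 in the mutant, 136 and 315 CPM, a log2 ratio of 1.21 (0.95 to 1.47). It was higher in the mutant in myelinating cells (43.4 and 198 CPM), in non-myelinating cells (68.1 and 291 CPM) and in the cells without a name (249 and 405 CPM). Slit2 was at 78.0 CPM in WT cells and 168 CPM in mutant cells, a log2 ratio of 1.11 (0.75 to 1.46), and it too was higher in the mutant in myelinating cells (171 and 298 CPM), non-myelinating cells (73.0 and 221 CPM) and the rest (25.2 and 63.2 CPM). Ntn4 had 28 and 29 UMIs, 15.3 and 37.5 CPM, a log2 ratio of 1.30 (0.50 to 2.10). It had 2 and 3 UMIs in myelinating cells and 11 and 13 in non-myelinating cells, of which the mutant had only 14. In the cells without a name it had 15 and 13 UMIs, a log2 ratio of 0.73 (-0.46 to 1.90). These 3 genes kept their direction in each of 9 alternative settings, in which Slit2 went below the 2-fold limit with other filters on cells, to 0.94 at the lowest.

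Epha5 was the gene lower in mutant Schwann cells, at 108 and 44.0 CPM, a log2 ratio of -1.30 (-1.87 to -0.77). Of its 198 WT UMIs 74 were in 1 cell, and without the top cell of each library the ratio was -0.85, and without integration it was -0.67. In myelinating cells the libraries were close, at 49.9 and 39.5 CPM, as in the cells without a name, at 33.1 and 37.9 CPM. In non-myelinating cells Epha5 was at 243 and 80.3 CPM, a log2 ratio of -1.60 (-2.84 to -0.58). It had 150 and 8 UMIs there, with the 74 of 1 WT cell among them. The non-myelinating cells made up 51 of 372 WT and 14 of 160 mutant Schwann cells. Summed endothelial markers in Schwann cells were 168 and 82.7 CPM and mural markers 298 and 119 CPM, with 2 of 8 and 3 of 8 higher in the mutant, and their part in these values was not tested. Of these markers 0 endothelial and 2 mural ones were at 0 in WT, and 1 of each in the mutant.

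In mural cells none of 27 genes was higher and 3 were lower in the mutant, against 1.36% and 2.85% of all genes. Plxna2 had 233 UMIs in WT and 81 in the mutant, 104 and 48.2 CPM, a log2 ratio of -1.11 (-1.49 to -0.74). Efna5 was at 29.9 and 10.7 CPM, a log2 ratio of -1.48 (-2.32 to -0.71), and Sema6a at 43.3 and 19.1 CPM, a log2 ratio of -1.18 (-1.81 to -0.59). Endothelial cells had high levels of Plxna2 and Sema6a, and summed endothelial markers within the mural class were also lower in the mutant, at 675 and 386 CPM, with 0 of 8 markers higher. Mesenchymal markers there were at 1751 and 802 CPM, with 1 of 8 higher, and their part in these values was not tested. All 3 genes fell short of the 2-fold limit when doublets were removed (-0.82, -0.52 and -0.69), with the loosest filter on cells (-0.80, -0.28 and -0.48) and without integration (-0.99, -0.71 and -0.95).

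In macrophages 8 of 24 genes were higher and none was lower, against 6.25% and 1.47% of all genes, and all 8 were at low levels, from 0.833 to 8.07 CPM. Efna5 had 15 UMIs in WT and 81 in the mutant, 1.14 and 5.79 CPM, a log2 ratio of 2.35 (1.54 to 3.25). Epha7 was at 0.833 and 3.07 CPM, Sema6d at 1.59 and 5.43 CPM, Slit2 at 0.984 and 2.86 CPM and Sema5a at 0.984 and 2.79 CPM. The 3 smaller differences, named after their values were seen, were those of Sema3d (1.21 and 2.79 CPM), Sema3c (3.56 and 8.07 CPM) and Plxna2 (3.71 and 7.72 CPM). Each of these genes was highest in another class.

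Of the 4 macrophage clusters, 2 lay under the median depth of their library and held 99 WT and 291 mutant macrophages, 16.8% and 37.9% of the class. In the deeper clusters 3 of the 8 genes kept a 2-fold difference with at least 50 UMIs: Plxna2 (2.92 and 7.0 CPM), Sema6d (1.67 and 5.21 CPM) and Efna5 (0.752 and 4.07 CPM). Sema3d (0.752 and 2.52 CPM) kept the fold with under 50 UMIs, Sema3c (3.68 and 7.32 CPM) lay just under it, and Epha7 stood at 0.919 and 1.30 CPM. Slit2 was at 1.09 and 0.977 CPM and Sema5a at 1.0 and 0.407 CPM in the deeper clusters, and at 0 and 16.4 CPM and 0.807 and 19.9 CPM in the shallow ones. By subtype, Efna5 and Sema6d both had 2 and 3 UMIs, 0.853 and 0.859 CPM, in interferon-type macrophages. In resident cells Efna5 had 1 and 3 UMIs and Sema6d stood at 10.6 and 14.4 CPM. The remaining, unnamed macrophages were 358 WT and 486 mutant cells that differed in depth, with medians of 26218.5 and 7909.5 UMIs. In them Efna5 stood at 1.22 and 8.97 CPM and Sema6d at 0.814 and 5.02 CPM. Plxna2 stood at 1.28 and 1.72, 9.64 and 20.03, and 3.66 and 7.06 CPM in the same order. Epha7 had 5 and 1 UMIs in resident and 5 and 36 UMIs in unnamed macrophages. Summed markers of mesenchymal cells in the whole class were 74.0 and 114 CPM (7 of 8 higher in the mutant), of Schwann cells 56.7 and 100 CPM (7 of 7) and of erythroid cells 1140 and 7537 CPM (8 of 8). Those of mural cells went the other way, at 102 and 17.9 CPM (1 of 8), as did those of chondrocytes, at 14.1 and 8.72 CPM (2 of 8). Their part in the 8 values was not tested.

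**Figure D5:**
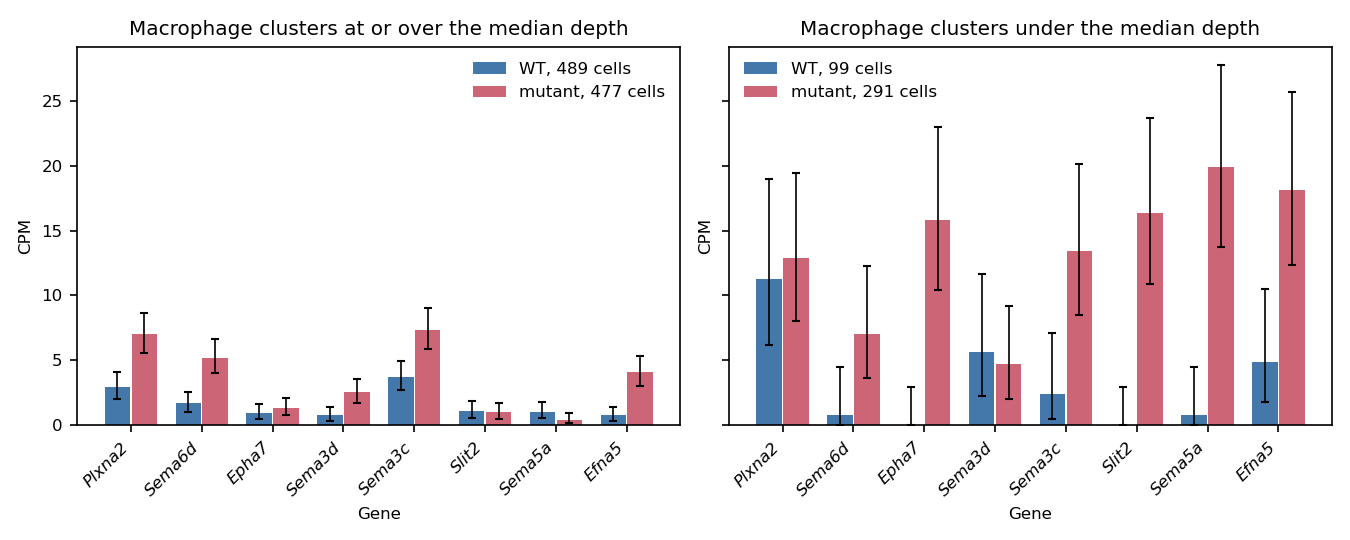
Level in CPM (vertical axis from 0) of the 8 axon guidance genes that were at least 2-fold higher in mutant macrophages, in macrophage clusters at or over the median depth of their library (left) and under it (right), with 95% Poisson counting intervals. In the deeper clusters Slit2, Sema5a and Epha7 have overlapping intervals, and the shallow mutant clusters reach 19.9 CPM.

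In neutrophils 1 of 15 genes was higher and 2 were lower, against 3.44% and 1.69% of all genes. The class differed in makeup between the libraries. One of its clusters held 38 of 350 WT cells, with a median of 19738.5 UMIs, and 231 of 563 mutant cells, with a median of 3773 UMIs. Sema4b was at 5.18 CPM in WT cells and 11.8 CPM in mutant cells, a log2 ratio of 1.19 (0.43 to 2.02). Sema4b was high in erythroid cells, and summed erythroid markers within neutrophils were 3135 and 24101 CPM, with 8 of 8 higher in the mutant and none at 0, whose part in the Sema4b value was not tested. Robo1 was at 10.9 and 3.04 CPM and Sema5a at 14.1 and 6.58 CPM, and 40 of the 49 WT UMIs of Sema5a were in 1 cell, without which its log2 ratio turned from -1.10 to 1.23. With doublets removed Robo1 and Sema5a were higher in the mutant, with log2 ratios of 2.66 and 3.66. In granulocyte-monocyte progenitors none of 5 genes was higher and none lower, against 4.36% and 1.39% of all genes.

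In erythroid cells 1 of 8 genes was higher and 2 were lower, against 2.62% and 7.37% of all genes. Slit3 was at 3.30 CPM in WT cells and 8.83 CPM in mutant cells, Plxna2 at 25.2 and 5.39 CPM and Sema6a at 19.8 and 6.28 CPM. Summed endothelial markers in this class were 219 and 62.1 CPM, with 0 of 8 higher in the mutant, and their part in the Plxna2 and Sema6a values was not tested. In B lineage cells none of 2 genes was higher and 1 was lower, against 8.37% and 4.6% of all genes. Sema4b had 92 UMIs in WT and 46 in the mutant there, 118 and 51.9 CPM, a log2 ratio of -1.19 (-1.73 to -0.66).

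Other genes of these pathways were read from a list of 26 coreceptors, further receptors and intracellular mediators, of which 23 were detected and Unc5a, Dpysl4 and Dpysl5 were not. Over the 9 classes 5 of 108 values (4.63%) were higher and 6 (5.56%) lower in the mutant, beside the 3.43% and 2.82% of all genes. Nrp1, the neuropilin that pairs with plexins and with a receptor for vascular growth factors, was highest in endothelial cells at 895 CPM in WT cells and 1212 CPM in mutant cells. Nrp2 was highest in osteoblasts and osteocytes, at 1030 and 1553 CPM. In Schwann cells the netrin receptor Dcc (47.5 and 0 CPM), Flrt2 (40.4 and 2.59 CPM) and Dpysl3 (72.0 and 14.2 CPM) were lower in the mutant. Of the WT UMIs of these 3 genes 54 of 87, 53 of 74 and 52 of 132 were in 1 cell each, and without the top cells the log2 ratios were -2.21, -3.15 and -2.49. In macrophages Flrt3 (9.54 and 26.1 CPM), Unc5c (8.25 and 17.7 CPM) and Neo1 (1.21 and 2.93 CPM) were higher and Mical2 (40.1 and 15.6 CPM) was lower. Of the 248 mutant UMIs of Unc5c 161 were in 1 cell, and without the top cell of each library its log2 ratio was -0.12 in place of 1.10. Srgap3, a mediator of Slit signalling, was lower in mutant endothelial cells and higher in mutant neutrophils and granulocyte-monocyte progenitors, with log2 ratios of -1.53, 1.79 and 1.59, and Dpysl2 was lower in erythroid cells at -1.37. In endothelial cells 32 of the 67 WT UMIs of Srgap3 were in 1 cell, and without the top cells its ratio there was -0.92.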

How the data were processed

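The authors made the count tables with Cell Ranger 7.0.1 on mm10 (GRCm38), and they were deposited as raw UMI counts per gene and barcode, with no normalization. The labels name an earlier kit version and other enzymes than the study's methods, and whether intronic reads were counted is not given in the sources used here. Following the methods, the cells kept had 500 genes or more and less than 10% of UMIs from mitochondria (48366846 WT and 54330221 mutant UMIs), and they were processed with SCTransform (sctransform 0.4.2), integrated by anchors and clustered in Seurat 5.3.0 on 200 principal components at resolution 1.5, with 3000 integration features less the axon guidance genes. Subclusters used 30 components and resolution 0.5.

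Of 45 clusters 32 were named: at least 3 markers raised 2-fold (CPM plus 5) in at least 10% of cells, with no other lineage leading. Subclusters did not have to meet the last of these rules. Levels are UMIs summed per class and library, scaled to 1000000, with exact Poisson intervals. Shares have exact Clopper-Pearson intervals, and ratios exact conditional binomial ones. A count of 0 was set to 3 UMIs. Slit2, Slit3, Ephb1, Ntn1 and Ntn3 overlap another counted gene on the same strand, so their counts are uncertain. Doublets were kept in the main values. Scrublet (scanpy 1.11.5) called none by itself, so the highest scores, 239 WT and 462 mutant barcodes, were removed as an alternative. Python 3.11.15, numpy 2.4.6, scipy 1.17.1 and pandas 2.3.3 were used, and the ratios and the naming were tested on simulated data.

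Members and gene lists were chosen with earlier results of these data known. Named genes were all members with at least 100 UMIs, in each class at most 5 each way with a 2-fold difference, and a list of ligand and receptor pairs. The limit on depth in ranked classes was set after the data were seen. Alternatives covered filters, doublets, clustering, thresholds, thinning and single cells of high count. No p-value was computed.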

Additional observations from a re-analysis of the deposited data

Results flagged for a closer look

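Some genes differed at least 2-fold between the libraries in opposite directions in different classes. The difference between classes was not tested in any of these cases, since there was 1 library per genotype. Plxna2 had log2 ratios of mutant over WT of -1.11 in mural cells and -2.22 in erythroid cells and of 1.06 in macrophages. Efna5 had -1.48 in mural cells, 1.21 in Schwann cells and 2.35 in macrophages. Slit2 had -3.17 in endothelial cells, where 1 WT cell held most UMIs, 1.11 in Schwann cells and 1.54 in macrophages. Epha7 had -3.25 in mesenchymal cells and 1.88 in macrophages. Sema4b had 1.19 in neutrophils and -1.19 in B lineage cells. Sema5a had 1.5 in macrophages and -1.10 in neutrophils, and the latter turned without 1 WT cell. In the deeper macrophage clusters alone Sema5a was at -1.30 and Slit2 at -0.15, both turned, and Epha7 was at 0.50.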

How the results depend on the processing

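No paired analysis was possible because each genotype had 1 library. The counts of detected genes (50 to 57) and of genes highest in endothelial cells (11 to 14) and Schwann cells (10 to 15) stayed within 1.5 times their main value of 54, 14 and 15 under every alternative run. The count highest in mesenchymal cells moved from 4 to 10 with the filter of 1000 genes and 5% mitochondrial UMIs, under which osteoblasts and osteocytes had too few mutant cells to be ranked, and to 10 with the mean of single cells. For other changes the cause was not tested.

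Counts of axon guidance genes past the fold moved as follows. The share of all genes past the fold was not computed for these alternatives, so the counts cannot be set against it. With a filter of 200 genes and 20% mitochondrial UMIs they were 2 in mesenchymal and 1 in mural cells. With 1000 genes and 5% they were 6 in mural cells and 5 in macrophages. With doublets removed they were 1 in endothelial, 4 in mesenchymal and 1 in mural cells and 5 in neutrophils. Members among the clustering features gave 5 in macrophages, 30 components gave 2 in mesenchymal cells, resolution 0.5 gave 3 in mesenchymal cells and 5 in macrophages, and merging without integration gave 2 in mesenchymal and 1 in mural cells. At least 100 UMIs left 2 in macrophages and 0 in neutrophils. A fold of 1.5 gave 7 in endothelial, 6 in mesenchymal, 8 in mural and 11 in Schwann cells and 5 in neutrophils. A pseudocount of 5 CPM left 1 in endothelial cells and 0 in macrophages and neutrophils. Without the top cell of each gene there were 5 in macrophages and 1 in neutrophils. Alternatives added after the data were seen gave the following. The deeper macrophage clusters alone gave 4, of which Slit3 was lower in the mutant, and adding shallow clusters with endothelial markers left 2 in endothelial cells. Leaving out the deepest cell of each class kept the counts by leading class within 1.5 times.

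Sema5a in neutrophils turned to 3.66 with doublets removed and to 1.23 without the top cell, and Robo1 there turned to 2.66 with doublets removed. The log2 ratio of Sema3g in arterial over capillary cells was 3.12 and moved to 3.93 with the filter of 200 genes, 3.89 with doublets removed, 3.82 with 30 components, 3.80 at resolution 0.5 and 4.03 when merged. That of Efnb2 in arterial over venous cells moved from 1.31 to 1.49 at resolution 0.5 and 1.62 when merged, that of Sema3a in venous over capillary cells from 5.39 to 4.23 when merged, and that of Robo2 in capillary over venous cells from 2.67 to 2.18 with doublets removed, 2.05 at resolution 0.5 and 1.65 when merged. The difference in thinned shares of endothelial cells with Sema6d, 13 percentage points, was 8.21 at 1000 UMIs and 23.4 without thinning. Genes under about 50 UMIs in a class could not be compared at this depth.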

Other observations

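A cluster that could not be named (85 WT and 29 mutant cells), led by Dok6, Plppr1, Gpc5, Unc5d and Unc5c, had high levels of axon guidance genes in both libraries. Slit3 stood there at 1677 and 1493 CPM, Sema5a at 720 and 628 CPM, Robo1 at 657 and 612 CPM and Efna5 at 395 and 637 CPM. Robo2 was at 210 and 195 CPM and Epha7 at 212 and 128 CPM, above its level in each of the 13 classes ranked. This cluster was chosen after its values were seen. A shallow unnamed cluster with endothelial markers (115 WT and 152 mutant cells) had Plxna2 at 770 and 644 CPM, Efnb2 at 454 and 276 CPM and Ephb4 at 94.1 and 87.7 CPM. In it Sema6d was at 105 CPM in WT cells and 120 CPM in mutant cells, on 19 and 48 UMIs, values nearer to each other than those of the named endothelial cells.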
